A study of Mus musculus with 173 samples.

Results

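The genes described here encode the nuclear subunits of respiratory complexes II to V: 4 genes of complex II, 9 of complex III, the carrier cytochrome c (Cycs), 16 of complex IV and 15 of complex V. These 45 genes were chosen by name, tissue isoforms included, from a table of 38561 genes, and every one matched 1 Ensembl identifier. Atp5g2 was listed at 0 FPKM in the median library of all 11 tissues and was never tested. Values of single genes are therefore given for 44 genes at most. A listing at 0 can come from how the authors counted and is not read as absent expression.

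Complex II (succinate dehydrogenase) feeds electrons from the citrate cycle into the quinone pool, complex III passes them to cytochrome c, and complex IV (cytochrome c oxidase) hands them to oxygen. Complex V, the ATP synthase, uses the proton gradient that complexes III and IV help to build. Complexes III, IV and V also hold subunits encoded in mitochondrial DNA, whereas complex II is entirely nuclear. Several subunits of complex IV have a second gene that is used in striated muscle (Cox6a2), in striated muscle and brown fat (Cox7a1, Cox8b), in lung (Cox4i2) or in testis (Cox6b2), and subunit c of the synthase is made from Atp5g1, Atp5g2 and Atp5g3.

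The mice were C57BL/6 animals aged 6 months, 8 of them heterozygous for the Q175 knock-in allele of huntingtin, which carries an expanded CAG repeat, and 8 wild type. Each genotype had 4 females and 4 males. Polyadenylated RNA was sequenced from 11 tissues, with 8 libraries per tissue and genotype except 7 wild-type libraries of gonadal white adipose and 6 of skin. Cages kept Q175 animals together, whereas wild-type animals shared theirs with the Q20 line, so genotype, housing and colony cannot be told apart. Bulk RNA was measured, so fewer cells of a type and less RNA per cell cannot be told apart. Within a tissue each library is 1 animal, so p-values measure the spread between these animals, and the same animals recur across tissues. Libraries are numbered within each tissue, so equal numbers in different tissues need not be the same animal. By the animal codes in the library names, 1 wild-type animal was male 1 in brown adipose and skin. It was male 3 in gonadal adipose and cerebellum and male 4 in intestinal adipose. Q175 female 3 in hippocampus and Q175 female 2 in hypothalamus/thalamus were also 1 animal.

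Library totals ran from 28 to 48 M estimated counts, and the 45 genes took 0.43% to 3.03% of them. The labelled tissues carried their own markers: brown adipocyte markers summed to 4064 to 7540 CPM in brown adipose and to at most 858 CPM elsewhere, and muscle fibre markers to 146332 to 199910 CPM in gastrocnemius and to at most 31691 CPM elsewhere. Several libraries stood apart in how their values depended on gene length. The subunit genes are short, with a median effective length of 723 bases against 2188 bases over all genes, and in 5 libraries log2 values fell by more than 0.2 per doubling of gene length. These are Q175 females 3 and 4 in hippocampus, Q175 female 2 in hypothalamus/thalamus, wild-type female 3 in brainstem and wild-type male 1 in brown adipose. In these libraries the median subunit gene lay 0.69, 0.43, 0.69, 0.53 and 0.44 above its tissue mean on the log2 scale, in the order just given, so the genotype comparisons of these tissues are given with and without them.

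The upstream bases of a few of these genes are shown because nuclear respiratory factor 1 (NRF1), a factor known for binding promoters of respiratory genes, has a recognisable motif, and because the muscle and brown fat genes carry the widest differences between tissues. Promoters from RefSeq (GRCm38.p6) were searched for 35 of the genes. The other genes had none in the set used or lay on a chromosome left out for the subunit genes. That rule was not applied to the promoters they are compared with. The NRF1 motif, 10 bases with 1 open position, was found on either strand within 250 bases upstream of the start in 6 of them (17.1%), against 3.86% of 27025 promoters: Sdha, Sdhd, Cox6a1, Atp5g2, Atp5h and Atp5k. Sdha, at chr13:74350241-74350490 (minus strand), holds it 3 times and Cox6a1, at chr5:115348959-115349208 (minus strand), 2 times. These matches describe letters and not binding. The GABPA motif CCGGAAGT was found in 3 (8.6%, against 2.93%), the YY1 motif AAGATGGC in 0 (against 1.59%), the oestrogen-related receptor motif TCAAGGTCA in 1, Atp5g3 (2.9%, against 0.37%), and the 10-base MEF2 motif in 1, Cox5b (2.9%, against 3.23%). The E-box CANNTG was found in 22 (62.9%, against 66.04%), among them Cox7a1 at chr7:30183921-30184170 (plus strand), Cox8b at chr7:140900447-140900696 (minus strand) and Atp5g1 at chr11:96075632-96075881 (minus strand). Capitals mark the NRF1 motif in the first pair of sequences and the E-box in the other 3, all written 5′ to 3′ on the gene's strand and ending at the base before the start.
Sdha: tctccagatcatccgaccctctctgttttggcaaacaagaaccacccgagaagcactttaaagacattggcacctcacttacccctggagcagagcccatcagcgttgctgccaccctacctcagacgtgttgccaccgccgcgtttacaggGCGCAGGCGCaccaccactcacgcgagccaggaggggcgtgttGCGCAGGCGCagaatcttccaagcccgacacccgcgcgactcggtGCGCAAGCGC
Cox6a1: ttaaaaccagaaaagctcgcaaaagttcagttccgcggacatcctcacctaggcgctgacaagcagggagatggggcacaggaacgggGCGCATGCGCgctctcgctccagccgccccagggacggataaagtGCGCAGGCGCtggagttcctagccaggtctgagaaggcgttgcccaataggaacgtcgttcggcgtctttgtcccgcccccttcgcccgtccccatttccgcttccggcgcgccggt
Cox7a1: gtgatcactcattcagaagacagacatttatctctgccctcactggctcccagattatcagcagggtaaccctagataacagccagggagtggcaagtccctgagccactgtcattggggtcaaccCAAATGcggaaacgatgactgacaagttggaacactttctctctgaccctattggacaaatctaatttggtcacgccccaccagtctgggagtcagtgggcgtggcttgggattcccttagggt
Cox8b: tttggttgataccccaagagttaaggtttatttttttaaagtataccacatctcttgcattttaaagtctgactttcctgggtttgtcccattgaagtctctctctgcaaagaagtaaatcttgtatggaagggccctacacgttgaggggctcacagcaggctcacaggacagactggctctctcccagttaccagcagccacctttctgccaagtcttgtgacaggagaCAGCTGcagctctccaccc
Atp5g1: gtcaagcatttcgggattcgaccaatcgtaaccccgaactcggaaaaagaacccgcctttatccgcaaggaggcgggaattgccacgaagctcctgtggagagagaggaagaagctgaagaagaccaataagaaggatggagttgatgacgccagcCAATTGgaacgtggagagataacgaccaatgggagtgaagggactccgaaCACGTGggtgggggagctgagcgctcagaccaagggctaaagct

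Levels were compared between genes as FPKM, a count per length and per library total. Brown adipose and heart had the highest levels, and the complexes split between them. Of 44 genes, 28 had their highest wild-type median in brown adipose, 14 in heart, 1 in gastrocnemius (Atp5e, the epsilon subunit of the synthase) and 1 in skin (Cox7a2l, a factor known for joining complexes III and IV). The corpus callosum had the lowest median for 26 of the 44. The tissue of the highest median was the same in Q175 and wild-type mice for 40 of them.

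Complex II and complex III genes were higher in brown adipose than in heart without exception, 4 of 4 and 9 of 9, with median ratios of wild-type FPKM of 1.31 and 1.4. Complex V went the other way, with 5 genes above and 9 below heart and a median ratio of 0.733. The mean FPKM over the 4 complex II genes had a median of 465 in wild-type brown adipose (397 to 531), 337 in heart (318 to 353), 212 in gastrocnemius (169 to 250), 139 in gonadal white adipose (131 to 178) and 61.5 in corpus callosum (59.3 to 75.4). The mean over the complex V genes had a median of 565 in wild-type brown adipose (533 to 745), 777 in heart (717 to 808), 447 in gastrocnemius (387 to 501) and 136 in corpus callosum (125 to 169). The complex V means include Atp5g2 as listed, which lowers them. The brown adipose and heart libraries do not overlap for complex II, and for complex V the highest brown adipose library, at 745, lay inside the heart range. Mitochondrially encoded subunits took 33.8% to 41% of counts in wild-type brown adipose and 39.5% to 43.4% in wild-type heart, against 6.12% to 6.71% in cerebellum.

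In brown adipose the synthase genes were unequal. Atp5b, the catalytic beta subunit, had a wild-type median of 2409 FPKM and Atp5a1, the alpha subunit, 1088 FPKM. Atp5g1 and Atp5g3, the subunit c genes with values above 0 in the files, had 24.9 and 199 FPKM, against 924 and 1076 FPKM in heart. Brown adipose had the lowest Atp5g1 median of the 11 tissues. The longest identical stretch between transcripts of Atp5g1 and Atp5g3 was 11 bases, and between Atp5g1 and Atp5g2 21 bases.

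The paired isoforms of complex IV separated muscle, brown fat and brain. Cox6a2 made up 97.2% of the summed Cox6a1 and Cox6a2 FPKM in the median wild-type gastrocnemius library (96.0% to 97.7%) and 93.9% in heart (91.8% to 95.1%). In brown adipose it made up 3.14% (0.00866% to 9.03%), in brain tissues medians ran from 0.0786% to 3.54%, and in skin 33.8%. Cox8b made up 97.0% of the Cox8 pair in gastrocnemius, 90.3% in heart and 70.8% in brown adipose, and at most a median of 0.668% in a brain tissue. Cox7a1 made up 76.9% of the Cox7a1 and Cox7a2 sum in heart, 66.2% in gastrocnemius, 63.1% in brown adipose and 29.7% in skin, with medians of 1.12% to 4.82% in the brain tissues. Muscle fibre markers summed to 10483 to 31691 CPM in the wild-type skin libraries, and their part in the skin shares was not tested. Brown adipose carried Cox7a1 and Cox8b at 660 and 1646 FPKM, beside Cox6a1 at 969 FPKM, the form that was lowest in gastrocnemius at 14.8 FPKM. Exons of Cox6a2 overlap Itgad on the other strand and the strand of the reads is not stated, so their reads cannot be told apart.

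**Figure D1:**
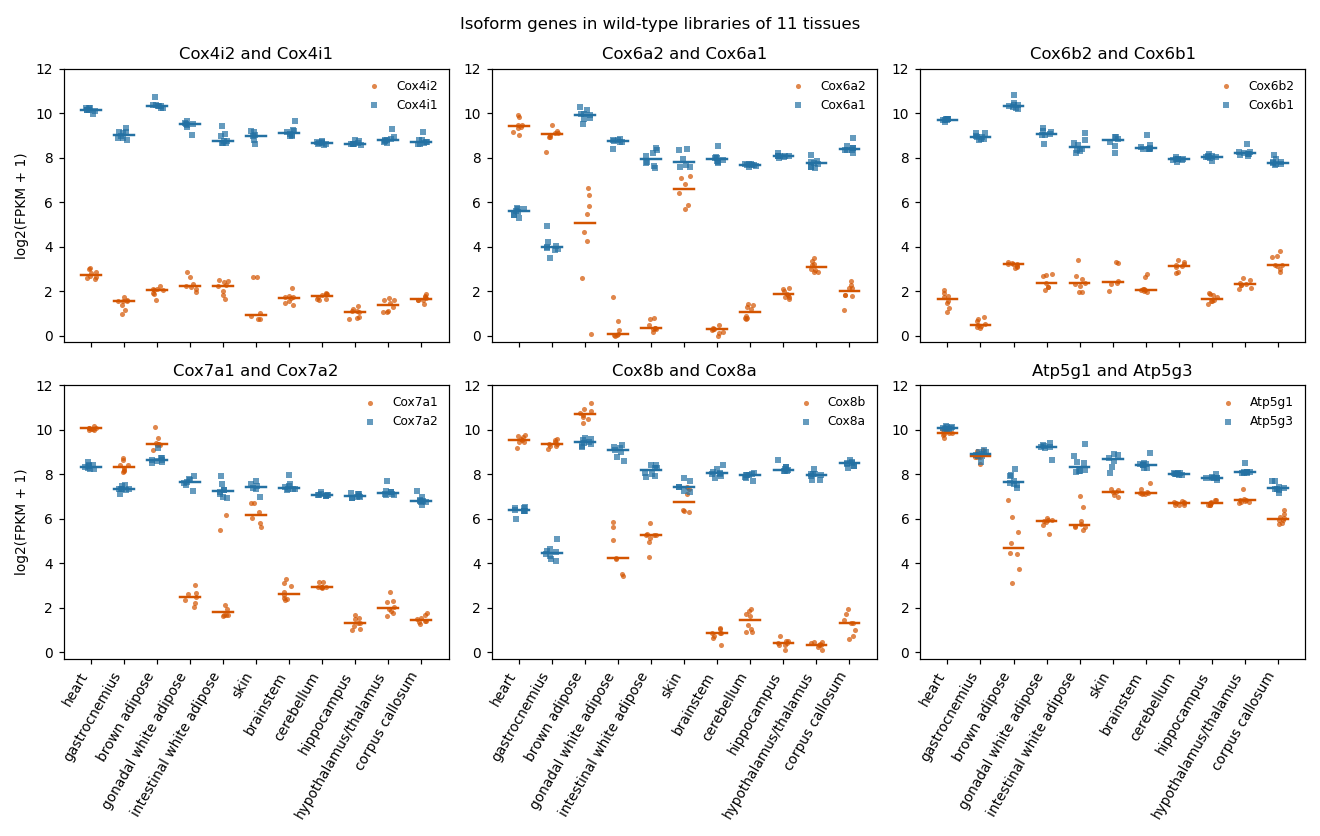
FPKM of 6 isoform pairs, on a log2(FPKM + 1) axis, in each wild-type library of 11 tissues (8 per tissue, 7 in gonadal white adipose and 6 in skin). Points are libraries and lines are medians. Cox6a2 lies above Cox6a1 in heart and gastrocnemius alone, whereas Cox7a1 and Cox8b lie above their partners in brown adipose too.

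The second forms Cox4i2 and Cox6b2 were rare everywhere. Cox4i2 made up medians of 0.178% to 0.791% of the Cox4 pair across wild-type tissues, and its highest level was 5.75 FPKM in heart (4.91 to 7.13). Cox6b2 made up 0.0782% to 3.62% of the Cox6b pair, with 8.42 FPKM in brown adipose (7.26 to 8.89), 8.11 in corpus callosum (6.31 to 12.8), 7.88 in cerebellum (6.08 to 9.43) and 0.406 in gastrocnemius (0.286 to 0.783). The ranges of the first 3 of these overlap and none of them reaches the gastrocnemius range. Atp5g1 made up 48.8% of the Atp5g1 and Atp5g3 sum in gastrocnemius and 46.6% in heart, 27.5% to 30.9% in the brain tissues, and 9.06%, 11.4% and 15% in gonadal, brown and intestinal adipose.

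In all, 4 pairs of tissues were tested within wild-type animals, with the animal as a block and a gene called at an adjusted p under 0.05 (edgeR) and a change over 2-fold. In heart over cerebellum 41 of 44 subunit genes were higher and 0 lower, where 57.9% of all 16210 genes tested were called and 27.4% were called higher. Cox6a2 was higher by 10.44 on the log2 scale (SE 0.15, adjusted p = 6.76e-15), with medians of 690 FPKM in heart and 1.08 FPKM in cerebellum. Cox8b was higher by 9.90 and Cox7a1 by 8.45 on the log2 scale, followed by Atp5g1 at 3.91. The 3 genes that were not called were Cox6a1 (log2 change -0.94), Cox6b2 (-0.72) and Cox8a (-0.38), each lower by less than 2-fold. The median log2 change was 3.07 for the subunit genes and -0.11 for all genes. Scaling to the library total alone, in place of edgeR's trimmed mean (TMM) scaling, gave medians of 1.89 and -1.28, with 40 genes called higher and 3 lower, Cox6a1, Cox6b2 and Cox8a. With that scaling 71.2% of all genes were called, 2340 of 16210 tested higher and 9207 lower.

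In brown over gonadal white adipose 40 of 44 were higher and 0 lower (7 animals), where 25.5% of 15331 genes were called and 11.6% called higher. Cox7a1 was higher by 7.88 on the log2 scale (SE 0.29, adjusted p = 1.44e-07), with medians of 660 FPKM in brown and 4.64 FPKM in gonadal adipose. Cox6a2 was higher by 7.55, Cox8b by 6.88 and Uqcrc1, a core subunit of complex III, by 2.85 on the log2 scale. The genes that were not called higher were Cox4i2 (0.26), Atp5j (0.23), Atp5g1 (-0.15) and Atp5g3 (-0.74), 3 of them subunits of the synthase. Leaving out each animal in turn called 39 to 40. Library total scaling called 30 higher and 1 lower, where 41.8% of genes were called, 887 of 15331 tested higher and 5526 lower. The median of all genes was then -0.74, against -0.05 with TMM scaling. Muscle fibre markers summed to 87.3 to 23928 CPM in these brown adipose libraries, and their part in the Cox6a2 value was not tested.

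In gastrocnemius over heart 0 genes were called higher and 6 lower, where 30.9% of 14545 genes were called and 17.4% called lower. Cox6b2 (-1.97), Cox8a (-1.76), Cox4i2 (-1.58) and Cox7a1 (-1.52) changed most. Cox7a1 had a median of 322 FPKM in gastrocnemius (275 to 428) and 1063 FPKM in heart (1010 to 1129), and the libraries do not overlap. Cox8b did not pass the test at a log2 change of -0.00 (SE 0.073, adjusted p = 0.988). With library total scaling 10 genes were lower and 0 higher, where 32.3% of genes were called, 3079 of 14545 tested lower, and the median of all genes was -0.21, against -0.03 with TMM scaling.

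In cerebellum over hippocampus 5 of 44 were called, where 25.2% of 16451 genes were, 11% higher and 14.3% lower. Cox8b (2.16), Cox7a1 (2.04), Cox6b2 (1.70) and Cox4i2 (1.06) were higher and Cox6a2 (-1.42) was lower, all of them second forms of complex IV. Cox6b2 had a median of 7.88 FPKM in cerebellum (6.08 to 9.43) and 2.19 FPKM in hippocampus (1.71 to 2.81), with no overlap. In the Q175 mice 1 of 43 genes was higher and 1 lower, Cox7a1 and Cox6a2. Of 16372 genes tested there 26% were called, 1828 higher and 2425 lower. The 8 Q175 mice included both hippocampal libraries with a steep length slope.

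Q175 and wild-type mice were compared tissue by tissue, with sex as a term and genes called at an adjusted p under 0.05 (edgeR). The subunit genes fell together in Q175 gonadal white adipose, and elsewhere between 0 and 4 of them were called.

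**Figure D2:**
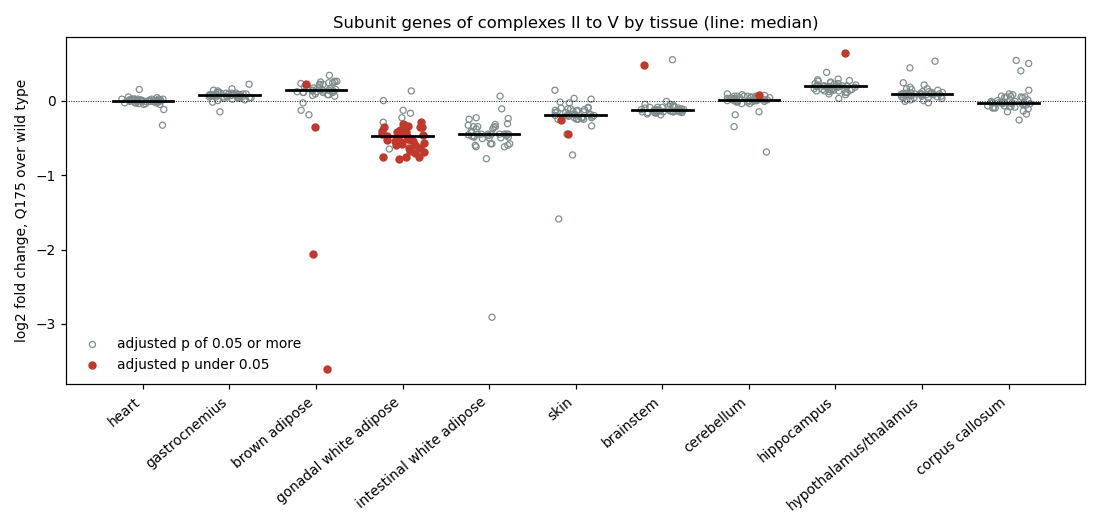
Log2 fold change, Q175 over wild type, of each tested subunit gene (42 to 44 per tissue) in 11 tissues. Filled points have an adjusted p under 0.05 and lines are medians, which range from -0.48 in gonadal white adipose to 0.19 in hippocampus.

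In gonadal white adipose 36 of 43 subunit genes fell in Q175 mice and 0 rose, where 32.1% of 16049 genes were called and 16.7% were called lower. All 4 genes of complex II fell, all 9 of complex III, Cycs, 10 of 15 of complex IV and 12 of 14 of complex V. The median log2 change was -0.48, against 0.02 over all genes. Uqcr10, a small subunit of complex III, had 166 FPKM in the lowest, 186 in the median and 248 in the highest Q175 library, against 188, 263 and 331 FPKM in wild-type libraries. The groups overlap through wild-type male 3, at 188 FPKM, and Q175 female 1, at 248 FPKM. Uqcr10 fell by 0.68 on the log2 scale (SE 0.073, adjusted p = 0.000294).

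Uqcrh, the hinge protein that helps cytochrome c meet complex III, had 245, 258 and 342 FPKM (lowest, median, highest) in Q175 libraries, against 267, 398 and 512 FPKM in wild type, and fell by 0.76 (SE 0.09, adjusted p = 0.000294). The 4 Q175 males lay between 245 and 246 FPKM, below every wild-type library. Cox7c, a small structural subunit of complex IV, had 123, 152 and 200 FPKM in Q175 libraries, against 156, 215 and 250 FPKM in wild type, and fell by 0.64 (SE 0.072, adjusted p = 0.000294). Cox6b1, the general form of the subunit that faces cytochrome c, had 352, 382 and 481 FPKM in Q175 libraries, against 390, 532 and 634 FPKM in wild type, and fell by 0.63 (SE 0.074, adjusted p = 0.000294). In each of these the lowest wild-type library, male 3, lay within the Q175 range and the other 6 lay at or above 387 FPKM for Uqcrh, 194 for Cox7c and 513 for Cox6b1. For Cox7c wild-type male 1, at 194 FPKM, also lay below the highest Q175 library, at 200 FPKM. Atp5k, a small membrane subunit of the synthase, had 180, 203 and 266 FPKM in Q175 libraries, against 215, 304 and 362 FPKM in wild type, and fell by 0.69 (SE 0.074, adjusted p = 0.000294). Atp5j2, another, had 134, 145 and 191 FPKM in Q175 libraries, against 148, 201 and 236 FPKM in wild type, and fell by 0.55 (SE 0.064, adjusted p = 0.000294). For Atp5k wild-type male 3 alone lay below the highest Q175 library, and for Atp5j2 wild-type males 1 and 4 did as well.

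The 7 genes that did not pass included Cox7a1 (log2 change -0.00), Cox4i2 (-0.13), Cox6b2 (0.13) and Cox7a2l (-0.17), and 3 with larger changes: Cox8b (-0.65, adjusted p = 0.052), Atp5g1 (-0.29, adjusted p = 0.0566) and Atp5b (-0.23, adjusted p = 0.0723). Cox8b ran from 4.46 to 44.1 FPKM in Q175 libraries and from 9.63 to 56.6 FPKM in wild type, a wide overlap. Atp5a1, the alpha subunit, fell by 0.29 (adjusted p = 0.0158), and its exons overlap Haus1 on the other strand.

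**Figure D3:**
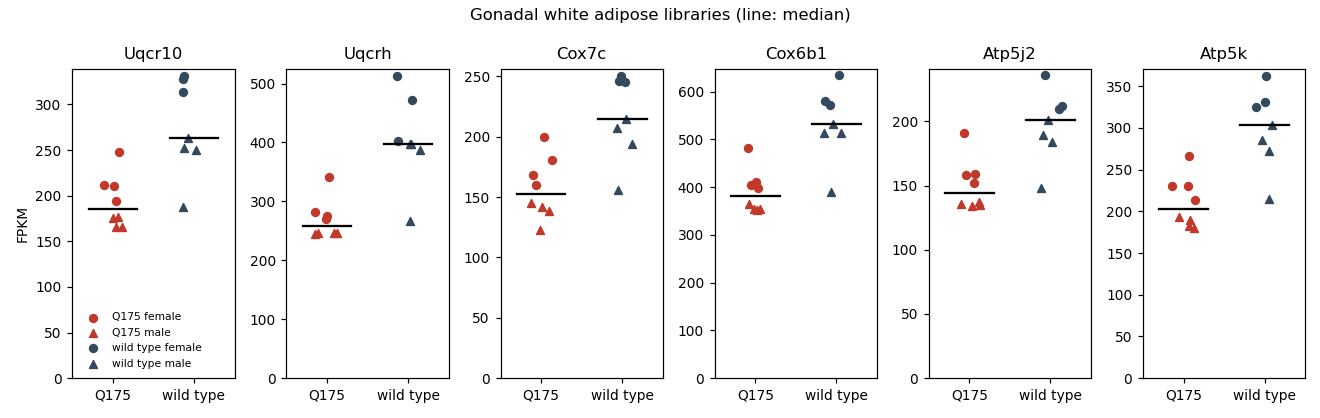
FPKM of 6 genes in gonadal white adipose libraries (circles female, triangles male, lines medians). Wild-type male 3 lies in the Q175 range in every panel, and the other 6 wild-type libraries lie above the Q175 median.

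Other measures moved with the genotypes in this tissue. Wild-type male 3 was at or below the highest Q175 library for 34 of the 36 genes, and each other wild-type library for 0 to 17. Macrophage markers (8 genes) summed to 435 to 515 CPM in Q175 libraries and to 147 to 475 CPM in wild type, the 475 in male 3 and the next at 289. Epididymis markers (9 genes) summed to 571 to 3393 CPM in the 4 Q175 males and to at most 4.63 CPM in every other library of the tissue. White adipocyte markers summed to 21687 to 37382 CPM in Q175 libraries and to 29520 to 36735 CPM in wild type. In females alone 19 of 44 genes fell and 0 rose (3.64% of genes called), and in males alone 35 of 43 fell (19.5% of genes called). Of the library names, 4 wild-type and 0 Q175 ones carried the code L1, whose meaning is not stated. Every wild-type female carried it, so in females genotype and code cannot be told apart. The wild-type libraries coded L1 were at or below the highest Q175 library for 0, 0, 2 and 9 of the 36 genes. That count was 14 for the wild-type library coded L8, 17 for L3 and 34 for L2, which is male 3. Q175 libraries carried L2, L3 and L8 too. With the library codes as a term 14 of 43 fell (3.5% of genes called), the 6 genes named above among them with adjusted p-values up to 0.0421. The slope on gene length ran from -0.116 to 0.117 in Q175 (median 0.086) and from -0.136 to 0.042 in wild type (median -0.081). With the length trend removed 29 fell and 1 rose (28.4% of genes called), and the median was -0.27. The part of these measures in the result was not tested beyond those values.

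Related genes fell in the same tissue. All 13 mitochondrially encoded subunits fell (median log2 change -0.70), mt-Nd1, mt-Nd4l and mt-Atp8 by 0.79, 0.63 and 0.62, and they took a median of 9.68% of counts in Q175 and 14% in wild type. Of 36 complex I subunits 35 fell, including Ndufb10 and Ndufs4 by 0.67 and 0.65. Of 36 assembly factors of complexes II to V 20 fell, including Atpaf2, which assembles the synthase (-0.53), Higd1a (-0.47) and Cox19, a copper chaperone of complex IV (-0.39). Of 14 citrate cycle enzymes 11 fell, including Sucla2, Dlst and Dld (-0.36, -0.38 and -0.44). Of 5 other tested subunits and inhibitors 3 fell: Ndufa4, Usmg5 and Hccs. Of 13 regulators of mitochondrial gene expression 3 fell, Esrra (-0.40), Tfb2m (-0.29) and Tfam (-0.24), and 1 rose. That gene, named after its value was seen, was Gabpa (0.14), whose exons overlap Atp5j on the other strand.

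In brown adipose 1 of 44 genes rose and 3 fell, where 5.41% of 14590 genes were called, 4.85% lower and 0.569% higher. Atp5g1 had 5.72 FPKM in the lowest, 6.44 in the median and 11.2 in the highest Q175 library, against 7.64, 24.9 and 114 FPKM in wild type. Wild-type female 1 was the lone wild-type library within the Q175 range. Atp5g1 fell by 2.06 on the log2 scale (SE 0.44, adjusted p = 0.0161). Cox6a2 had 0.0333, 2.13 and 6.54 FPKM in Q175 libraries, against 0.0728, 33.7 and 97.4 FPKM in wild type, and fell by 3.60 (SE 0.94, adjusted p = 0.0385). Wild-type females 1 and 2 lay within the Q175 range.

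Both genes ran with muscle fibre transcripts across these libraries. The 20 muscle fibre markers summed to 65.4 to 1189 CPM in Q175 libraries and to 87.3 to 23928 CPM in wild type, lowest in wild-type female 1 and highest in wild-type male 1, the library with 114 FPKM of Atp5g1. With that sum as a term 0 subunit genes were called and 1 gene of 14590 was (0.00685%), with Cox6a2 at a log2 change of 0.96. Without wild-type female 3 the adjusted p of Atp5g1 was 0.0516 and that of Cox6a2 was 0.097, and 0 subunit genes were called. Of 16 fits that leave out a library, Atp5g1 stayed past the threshold in 15 and Cox6a2 in 7. Atp5g3, the other subunit c gene with values above 0 in the files, had 158 to 221 FPKM in Q175 and 165 to 295 FPKM in wild-type brown adipose.

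**Figure D4:**
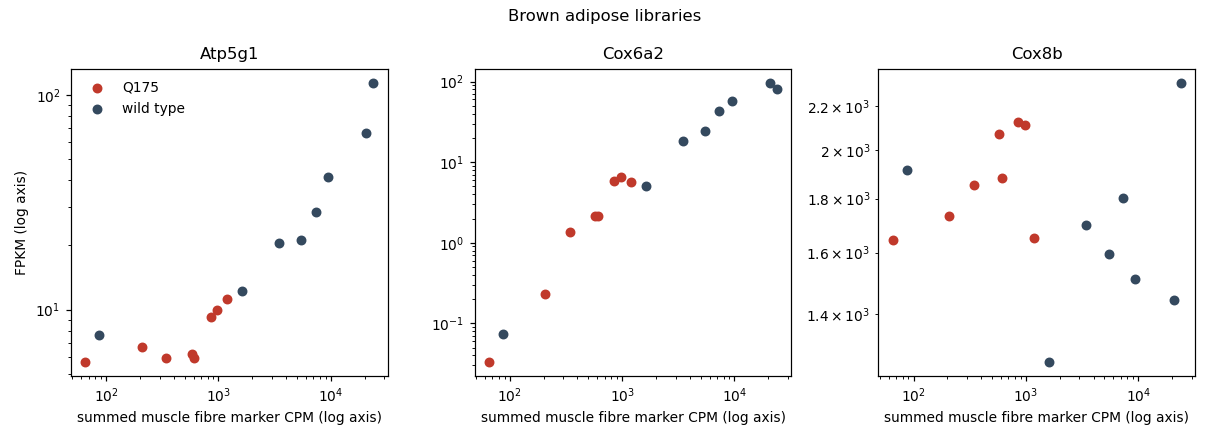
FPKM of Atp5g1, Cox6a2 and Cox8b (log axes) against the summed CPM of 20 muscle fibre markers in 16 brown adipose libraries. Atp5g1 and Cox6a2 are highest in the wild-type libraries with the most muscle fibre transcripts, up to 23928 CPM, whereas Cox8b stays between 1261 and 2318 FPKM.

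Cox6b2 had 4.94, 6.07 and 7.39 FPKM in Q175 brown adipose, against 7.26, 8.42 and 8.89 FPKM in wild type, and fell by 0.35 (SE 0.09, adjusted p = 0.0299). The ranges met only where Q175 female 3, at 7.39 FPKM, passed wild-type female 2, at 7.26 FPKM. Cyc1, cytochrome c1 of complex III, had 568, 609 and 654 FPKM in Q175 libraries, against 498, 538 and 578 FPKM in wild type, and rose by 0.23 (SE 0.065, adjusted p = 0.0465). The groups overlap where Q175 males 2 and 4 meet the highest wild-type libraries. Cyc1 stayed past the threshold in 3 of the 16 fits that leave out a library, with adjusted p-values of 0.0165 to 0.108. Cox6b2 did so in 7 of 16, with values of 0.0232 to 0.0763. Without wild-type male 1, the library with a steep length slope and the most muscle fibre transcripts, 27 genes rose and the same 3 fell, where 9.22% of genes were called. Among those 27 were Atp5a1 (0.25), Uqcrfs1 (0.32) and Sdhd (0.31), and the median log2 change was 0.26, against 0.14 with that library.

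Cox6b2 was the subunit gene that rose in 2 brain tissues of Q175 mice, from low levels. In hippocampus it had 2.22, 3.32 and 5.50 FPKM (lowest, median, highest) in Q175 libraries, against 1.71, 2.19 and 2.81 FPKM in wild type, and rose by 0.64 (SE 0.15, adjusted p = 0.019). Q175 male 3, at 2.22 FPKM, was the Q175 library that fell below the highest wild-type library. In brainstem it had 4.44, 5.06 and 7.17 FPKM in Q175 libraries, against 2.92, 3.21 and 5.82 FPKM in wild type, and rose by 0.48 (SE 0.12, adjusted p = 0.0425). Wild-type females 1 and 3, at 5.16 and 5.82 FPKM, lay within the Q175 range and the other 6 at or below 3.30 FPKM.

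Positive changes in 2 further brain tissues did not pass. In hypothalamus/thalamus Cox6b2 had 4.36, 5.77 and 8.80 FPKM in Q175 libraries, against 3.25, 3.97 and 5.12 FPKM in wild type, with a log2 change of 0.53 (adjusted p = 0.0589). In corpus callosum it had 8.21, 11.7 and 16.4 FPKM in Q175 libraries, against 6.31, 8.11 and 12.8 FPKM in wild type, with a log2 change of 0.40 (adjusted p = 0.229). In cerebellum the groups overlap, 5.55 to 8.56 FPKM in Q175 and 6.08 to 9.43 FPKM in wild type, at a log2 change of -0.15 (adjusted p = 0.342). The response of Cox6b2 differed between the 11 tissues (limma, adjusted p = 0.00116, 0.00121 with RLE scaling).

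**Figure D5:**
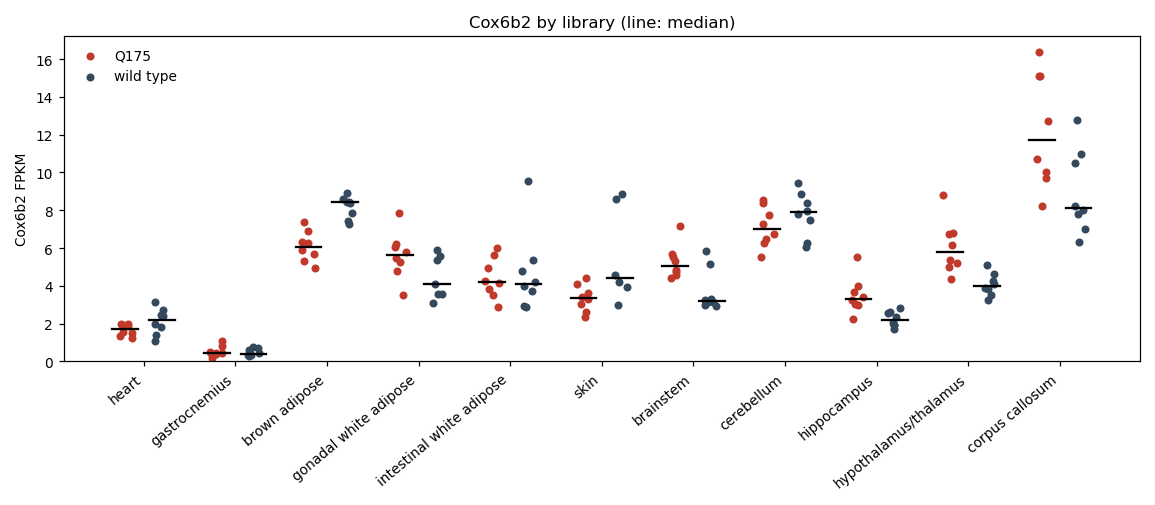
FPKM of Cox6b2 in each library of 11 tissues, Q175 left of wild type, with medians as lines. The Q175 medians lie below the wild-type ones in brown adipose, skin, heart and cerebellum, and above them in the other 7 tissues, by the test only in brainstem and hippocampus.

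The calls for Cox6b2 were close to the threshold. In brainstem the gene stayed past it in 3 of 16 fits that leave out a library, with adjusted p-values of 0.00398 to 0.0918, and a replicate block gave 0.154. In hippocampus it stayed past it in 16 of 16, with values of 0.0119 to 0.0456, and the library code term gave 0.0738. Leaving out the libraries with a steep length slope gave log2 changes of 0.49 in hippocampus (adjusted p = 0.0463), 0.57 in brainstem (0.00398) and 0.45 in hypothalamus/thalamus (0.0573). Without that brainstem library Cox7a1 was called as well, at 0.67 (adjusted p = 0.00592), against 0.55 (adjusted p = 0.0625) with it. Cox7a1 ran from 7.21 to 10.3 FPKM in Q175 brainstem and from 4.09 to 8.85 FPKM in wild type.

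In brainstem 1 of 42 genes was called, where 3.07% of 16563 genes were and 2.07% rose, and in hippocampus 1 of 43, where 4.56% of 16298 were and 1.96% rose. The medians over the subunit genes were -0.13 and 0.19, and they were -0.05 and 0.01 without the libraries with a steep length slope. In hippocampus 43 of 43 genes had a positive change with those libraries and 31 of 43 without them. Excitatory neuron markers summed to 5965 to 6760 CPM in Q175 hippocampus and to 6966 to 8039 CPM in wild type, and astrocyte markers to 4561 to 6015 CPM in Q175 and to 6177 to 6535 CPM in wild type. Neither pair of ranges overlaps, and their part in the hippocampal values was not tested.

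In cerebellum 1 of 44 genes rose, where 16.1% of 16020 genes were called and 7.94% rose, shares above that of the subunit genes. Atp5b had 646, 654 and 680 FPKM in Q175 libraries, against 607, 616 and 653 FPKM in wild type. Wild-type male 3, at 653 FPKM, was the wild-type library within the Q175 range. Atp5b rose by 0.08 on the log2 scale (SE 0.021, adjusted p = 0.0111) and was past the threshold in 16 of 16 fits that leave out a library. Among libraries whose names lack a D part, whose meaning is not stated, its adjusted p was 0.146, and the 1 subunit gene called there was Cox8b, which fell (log2 change -1.21, adjusted p = 0.0495, 3.76% of genes called) and is named after its value was seen. Oligodendrocyte and myelin markers summed to 3191 to 4376 CPM in Q175 cerebellum and to 4606 to 5572 CPM in wild type. Cerebellar neuron markers summed to 5902 to 6554 CPM in Q175 libraries and to 6692 to 7193 CPM in wild type. Neither pair of ranges overlaps, and their part in the cerebellar values was not tested. Of 13 mitochondrially encoded genes 3 fell, mt-Cytb (-0.09), mt-Co3 (-0.07) and mt-Co1 (-0.08). Of the assembly factors Lyrm7 and Fastkd2 fell (-0.28 and -0.11), the complex I subunit Ndufa13 rose (0.11), and Idh3g and Idh3a of the citrate cycle rose (0.12 and 0.07). Polrmt, the mitochondrial RNA polymerase, fell by 0.22 (SE 0.03, adjusted p = 3.35e-05), and the receptor genes Esrrb and Esrrg fell by 0.23 and 0.11.

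In skin 2 of 44 genes fell, both catalytic subunits of complex II, where 6.53% of 16482 genes were called and 4.03% fell, a share close to that of the subunit genes. Sdha, the flavoprotein, had 69.1, 76.4 and 85.6 FPKM in Q175 libraries, against 83.4, 90.3 and 105 FPKM in wild type, and fell by 0.26 (SE 0.07, adjusted p = 0.0419). Sdhb, the iron-sulphur subunit, had 59.5, 70.1 and 86.0 FPKM in Q175 libraries, against 75.1, 92.6 and 120 FPKM in wild type, and fell by 0.45 (SE 0.12, adjusted p = 0.0418). The groups overlap for both genes at the top of the Q175 range. Leaving out a library kept the call in 4 of 14 fits for Sdha and 3 of 14 for Sdhb, with adjusted p-values of 0.0245 to 0.0962 over both. Neither call held without a filter on low counts (adjusted p of 0.073 for Sdha and 0.0535 for Sdhb), with a replicate block (0.203 and 0.226, in the same order) or with the library codes as a term (0.0765 and 0.0665). Keratinocyte markers (7 genes) summed to 28758 to 37750 CPM in Q175 skin and to 11547 to 24971 CPM in wild type, and muscle fibre markers to between 5974 and 22447 CPM in Q175 and between 10483 and 31691 CPM in wild type. The part of the keratinocyte markers was not tested. With muscle fibre markers as a term 4 genes fell, where 13.7% of genes were called. Cox4i2 did not pass (log2 change -1.59, adjusted p = 0.0531), with 0.380 to 0.964 FPKM in Q175 libraries and 5.20 and 5.33 FPKM in wild-type males 1 and 2, against 0.703 to 1.02 FPKM in the other 4 wild-type libraries. Of 36 assembly factors 1 rose, Bcs1l, which inserts the iron-sulphur protein of complex III (0.31, adjusted p = 0.0414).

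In intestinal white adipose 0 of 43 genes were called and 0 of 16686 genes were (0%), with 23 subunit genes (53.5%) at an unadjusted p under 0.05, all lower, where 7.77% of all genes were at that level and 6.8% were lower. That count was 8 with a replicate block (7.96% of all genes), 4 with the library codes as a term (1.75%) and 8 with the length trend removed (7.19%). DESeq2 also called 0 of them. Uqcrq, a small subunit of complex III, had 35.8, 54.1 and 84.3 FPKM in Q175 libraries, against 67.1, 79.1 and 112 FPKM in wild type, at a log2 change of -0.78 (SE 0.22, adjusted p = 0.517). Cox7c had 62.6, 92.0 and 106 FPKM in Q175 libraries, against 98.1, 108 and 156 FPKM in wild type (log2 change -0.58, adjusted p = 0.552). The groups overlap for both genes. The median log2 change was -0.45, against -0.03 over all genes. Lymphocyte markers (8 genes) summed to a median of 2545 CPM in Q175 libraries and 1576 CPM in wild type, with highest libraries at 3249 and 2680 CPM. With their sum as a term the median log2 change was -0.29 and 13 subunit genes had an unadjusted p under 0.05 (5.77% of all genes). Cox7a1 reached 71.1 and 44.5 FPKM in wild-type female 2 and male 4, against at most 5.11 FPKM in every other library of the tissue. Pancreas markers (8 genes) summed to 3.64 to 128 CPM in Q175 libraries and to 4.12 to 37776 CPM in wild type. The highest were female 2, at 37776 CPM, and male 1, at 9084 CPM, and male 4 had 6.74 CPM. For Uqcrq and Cox7c female 2 was the highest and male 1 the lowest wild-type library. The part of the pancreas markers was not tested.

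No subunit gene was called in the 4 remaining tissues, where the share of all genes called was 0.0213% in gastrocnemius, 0.0549% in heart, 0.0544% in corpus callosum and 0.574% in hypothalamus/thalamus. At an unadjusted p under 0.05 there were 0, 0, 3 and 1 of them, where 6.3%, 7.82%, 19% and 13.7% of all genes were at that level. DESeq2 called 0, 0, 0 and 1, where 0.114%, 0.515%, 1.17% and 1.94% of genes were called. Cox7a1 had 2.74, 4.53 and 7.06 FPKM in Q175 hypothalamus/thalamus, against 2.14, 2.95 and 5.54 FPKM in wild type, at a log2 change of 0.44 (adjusted p = 0.419). The highest value was that of Q175 female 2, the library with a steep length slope, and without it the log2 change was 0.33 (adjusted p = 0.537). Without it the median over the subunit genes of that tissue was -0.03 and 12 of 43 changes were positive, against 0.09 and 40 of 43 with it. In corpus callosum it had 1.62, 2.57 and 3.59 FPKM in Q175 libraries, against 1.38, 1.72 and 2.40 FPKM in wild type, at a log2 change of 0.50 (adjusted p = 0.217). The groups overlap in both tissues. Excitatory neuron markers summed to 396 to 2565 CPM in Q175 corpus callosum and to 1331 to 3482 CPM in wild type, and their part was not tested.

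No difference passed in the muscles. In gastrocnemius the smallest p belonged to Cox7a2l, with 98.3, 108 and 117 FPKM in Q175 libraries, against 85.3, 95.2 and 106 FPKM in wild type (log2 change 0.09, adjusted p = 0.873). Cox6a2 followed, with 412, 655 and 849 FPKM in Q175 libraries, against 305, 536 and 714 FPKM in wild type (log2 change 0.22, adjusted p = 0.89). In heart Cox6a1 had 40.4, 52.4 and 66.8 FPKM in Q175 libraries, against 37.9, 47 and 52.6 FPKM in wild type (log2 change 0.15, adjusted p = 0.697). Cox6b2 had 1.25, 1.73 and 2 FPKM in Q175 heart, against 1.07, 2.17 and 3.16 FPKM in wild type (log2 change -0.33, adjusted p = 0.721). All 4 pairs of groups overlap. Cox6a2 made up a median of 97.2% of its pair in gastrocnemius of both genotypes, and Cox8b 89.9% in Q175 and 90.3% in wild-type heart.

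The size of the response differed between tissues for 41 of 44 subunit genes (limma on all libraries, adjusted p under 0.05), where 22.6% of 20662 genes passed. The libraries with a steep length slope were in that fit. Atp5g1 had the smallest p (adjusted p = 5.56e-08), followed by Uqcr10 (5.7e-06), and Atp5b, Cox8b and Cox7a2l did not pass. The fit held no term for muscle fibre transcripts. With that term in brown adipose alone Atp5g1 was not called (edgeR, adjusted p = 0.449). Comparisons of the response between females and males called 0 subunit genes in any tissue, where 0.231% of genes were called in gonadal adipose and 0% in each of the other 10. In hippocampus 31 of 43 had an unadjusted p under 0.05 for that difference, each with a lower change in males (median over the 43 genes -0.42), where 21.7% of all genes were at that level and 12.7% were lower in males, and both steep libraries of that tissue were Q175 females.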

How the data were processed

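Polyadenylated RNA, extracted with the Qiagen miRNeasy kit per the labels' protocols, was sequenced from 11 tissues of 16 mice. Reads were handled with CASAVA 1.8.2, per the submitters' processing notes. The aligner, counter, annotation and genome build were not given in the sources used here. The authors deposited estimated counts per gene, of which 16.6% were not whole, and FPKM values. Every test used the estimated counts after rounding, and the deposited FPKM gave levels. Of 38561 identifiers 36639 (95.0%) had a symbol.

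Q175 and wild type were compared per tissue with edgeR 4.0.16 (R 4.3.3; quasi-likelihood test, TMM scaling, filterByExpr, sex as a term, Benjamini-Hochberg adjustment over all genes). Tissue pairs had the animal as a block, and differences between tissues were tested with limma 3.58.1. DESeq2 1.42.0, RLE scaling, no filter, a replicate block, a library code term, a length trend and leaving out each library were alternatives. Scaling to the library total, marker terms, single sexes and leaving out libraries with a steep length slope were added after seeing the data. Scripts were tested on simulated data. Totals were 28 to 48 M counts per library.

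The text names up to 6 called genes with the smallest p per direction and tissue, the 2 with the smallest p where none was called, the isoform sets, up to 4 called genes per direction in tissue pairs and up to 3 per related list, of which 1 gene is not reported here. Genes and lists were chosen with earlier results of these data known. Atp5a1, Uqcrfs1 and Sdhd and the genes that missed a threshold were named after their values were seen.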

Additional observations from a re-analysis of the deposited data

Results flagged for a closer look

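Of 50 groups of values, each for a named gene in a tissue and genotype, 5 held 1 library far from the others. Chance gives about 1 in 20 for independent groups. These groups share libraries between genes, so they are not independent. In Q175 gonadal white adipose female 1 was highest for Atp5j2 at 191 FPKM (the others 134 to 159), for Uqcrh at 342 FPKM (245 to 282) and for Cox6b1 at 481 FPKM (352 to 410). Cox6b2 had 7.17 FPKM in brainstem of Q175 female 2, against 4.44 to 5.67 FPKM in the other Q175 libraries. Atp5b had 653 FPKM in cerebellum of wild-type male 3, against 607 to 628 FPKM in the other wild-type libraries. The response to genotype differed between tissues for 41 of 44 subunit genes (limma, adjusted p under 0.05), where 22.6% of 20662 genes passed. That fit included the libraries with a steep length slope.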

How the results depend on the processing

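The count of subunit genes called between Q175 and wild type kept within 1.5 times of its value in intestinal adipose, corpus callosum, gastrocnemius and heart under every alternative run. Percentages in brackets are shares of all genes called in the same fit. They are not given for fits that leave out a library or animal. In brown adipose (4 called, 5.41%) the count was 1 with no filter (3.21%), 0 with the replicate block (1.17%) and 1 with the library code term (1.51%). It was 9 with the length trend removed (6.19%), 8 with DESeq2 (8.26%) and 0 with the muscle fibre term (0.00685%). Without the library with a steep length slope it was 30 (9.22%). Leaving out each library gave 0 to 30, with 0 without wild-type female 3 and 30 without wild-type male 1. Cox6a2 had a log2 change of 0.96 there with the muscle fibre term, against -3.60. In gonadal adipose (36, 32.1%) the count was 14 with the code term (3.5%), 19 in females only (3.64%) and 36 to 38 leaving out each library. In brainstem (1, 3.07%) it was 0 with no filter (1.7%) or the replicate block (1.7%). It was 2 with the code term (3.77%), the length trend (4.13%), DESeq2 (4.34%) or the steep library left out (3.77%), and 0 to 2 leaving out each library. In cerebellum (1, 16.1%) it was 4 with the code term (14.9%), 6 with the length trend (17.2%) and 3 with DESeq2 (17.1%). It was 1 to 4 leaving out each library, with 3 without Q175 female 3 and 4 without wild-type male 3. In hippocampus (1, 4.56%) it was 0 with the code term (2.37%) and 2 with the length trend (7.63%). It was 1 to 2 leaving out each library, with 2 without Q175 female 2. In hypothalamus/thalamus (0, 0.574%) it was 1 with the length trend (1.24%), DESeq2 (1.94%) or library total scaling (0.52%). It was 0 to 1 leaving out each library, with 1 without Q175 female 4, Q175 male 2 or wild-type male 2. In skin (2, 6.53%) it was 0 with no filter (3.53%), the replicate block (0%) or the code term (1.6%), and 4 with DESeq2 (16.5%) or the muscle fibre term (13.7%). It was 0 to 4 leaving out each library, with 4 without wild-type female 2 or male 3. Leaving out each library gave 0 to 0 in the 4 other tissues. Gastrocnemius over heart (6, 30.9%) gave 10 with library total scaling (32.3%) and 6 to 7 leaving out each animal. Cerebellum over hippocampus (5, 25.2%) gave 2 in Q175 mice (26%) and 4 to 5 leaving out each animal. Brown over gonadal adipose (25.5%) gave 39 to 40 and heart over cerebellum (57.9%) 41 to 41, also leaving out each animal. The cause was not tested. Same-numbered Q175 and wild-type mice deviated together with r from -0.51 to 0.72, and in no tissue did every pair pass 0.1, so the numbers were not taken as pairs. Depth limits the low genes, Cox6b2, Cox4i2 and the brain levels of Cox6a2 and Cox8b, most.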
